A study of Mus musculus with 6 samples.

Results

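Netrins are secreted guidance proteins related to laminins, and cells read them through receptors of the DCC and UNC5 families. DCC and neogenin mediate attraction and adhesion, UNC5 receptors mediate repulsion, and DCC and UNC5 proteins are also known as dependence receptors because they can promote cell death when no netrin is bound. In the pancreas, netrin-1 and netrin-4 have been linked to the adhesion, migration and survival of islet cells. The 7 genes described here are the netrins Ntn1 and Ntn4, the UNC5 receptors Unc5a, Unc5b and Unc5c, and the receptors Dcc and Neo1 (neogenin). All non-control probes matched to these symbols were taken, which gave 11 of the 39429 probes on the array and 7 of the 20659 genes with a symbol. The set was proposed with the comparison of circHIPK3 siRNA and siGFP already known. The changes of its members are therefore a description, and no p-value is given for them.

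The cells were MIN6B1, a mouse insulinoma line that secretes insulin and serves as a model of the beta cell. One group received an siRNA that targets circHIPK3, the circular transcript of Hipk3, and the control group one that targets green fluorescent protein (siGFP). Both were delivered with a lipid reagent and left for 48 h. Each group had 3 samples, and total RNA was read on Agilent arrays with a single dye, 1 array per sample. Whether replicates came from separate cultures is not stated, and the p-values below reflect only how far these samples spread, and that spread may be technical.

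Array brightness, as the 75th percentile of processed signal, ran from 2939 to 3669 units. The share of probes that the scanner software called well above background ran from 77.7% to 83.5%. The number of arrays limits the precision. The file headers give a scan date and scan identifier, and arrays that share both are called 1 slide here. On this reading, slide 1 held all of the siGFP arrays together with replicate 1 of circHIPK3 siRNA. Slide 2 held the other 2, so slide and group are partly confounded. All 10 beta cell markers examined were measured. The log2 of their summed signals, in which the brightest markers weigh most, was 8.85 to 8.99 in the siGFP arrays. In the circHIPK3 siRNA arrays it was 8.77 to 8.96. Of 36 markers of other islet, exocrine, stromal, endothelial, immune and neuronal cells, 25 were measured and 0 passed the limma test, with 7 at an unadjusted p under 0.05. The other islet and the neuronal markers were the brightest of these lists. The log2 of their summed signals was 4.01 to 4.90 and 4.28 to 4.62 after siGFP. After circHIPK3 siRNA it was 3.45 to 4.36 and 4.30 to 4.53. Leukocyte markers lay at 1.88 to 2.08 after siGFP and 1.63 to 2.28 after circHIPK3 siRNA, and acinar and ductal ones at -3.5 to -2.9 and -3.2 to -3.0. Of 5 endothelial markers 2, Pecam1 and the brighter Kdr, were measured, and Cdh5, Tie1 and Emcn were well above background on no array. The log2 of the summed signals was 0.72 to 1.08 after siGFP and 0.88 to 1.13 after circHIPK3 siRNA. Of 6 fibroblast and stellate markers 4 were measured, with a log2 of the summed signals of -1.76 to -1.52 and -1.72 to -1.55. Among these Col3a1 (0.52 ± 0.15) and Dcn (0.58 ± 0.19, SE) had groups that did not overlap and did not pass. Both are dim, and the dimmest of 4 equal bins of kept probes had a median change of 0.27. The brighter Col1a1 (-0.20 ± 0.17) and Col1a2 (0.05 ± 0.12, SE) overlapped between the groups. Pdgfra was well above background on no array. The part of these markers in the results below was not tested. The brighter Hipk3 probe gave a change of -0.17 ± 0.14 and the dimmer one -0.31 ± 0.12 (SE), and neither passed. Since their positions against the exon that forms the circle are unknown, they check neither the knockdown nor the labels.

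The UNC5 receptors are paralogues, and their upstream sequences are shown side by side. The 250 bases before the annotated start come from RefSeq (build GRCm38.p6, gene strand, 5′ to 3′), in which 5 of the 7 genes had an entry. Capitals mark the GC box, GGGCGG on either strand, with overlapping matches merged.
Unc5a, chr13:54949161-54949410, plus strand: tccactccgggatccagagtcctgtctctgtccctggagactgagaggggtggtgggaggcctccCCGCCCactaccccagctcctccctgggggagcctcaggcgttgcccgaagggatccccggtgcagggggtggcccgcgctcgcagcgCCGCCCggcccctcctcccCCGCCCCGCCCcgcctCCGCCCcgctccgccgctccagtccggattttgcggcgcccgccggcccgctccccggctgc
Unc5b, chr10:60831582-60831831, minus strand: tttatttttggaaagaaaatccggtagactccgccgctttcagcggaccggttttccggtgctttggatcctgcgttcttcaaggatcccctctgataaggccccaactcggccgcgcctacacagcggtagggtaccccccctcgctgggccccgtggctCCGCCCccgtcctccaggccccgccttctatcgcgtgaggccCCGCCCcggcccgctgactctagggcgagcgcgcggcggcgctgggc
Unc5c, chr3:141465314-141465563, plus strand: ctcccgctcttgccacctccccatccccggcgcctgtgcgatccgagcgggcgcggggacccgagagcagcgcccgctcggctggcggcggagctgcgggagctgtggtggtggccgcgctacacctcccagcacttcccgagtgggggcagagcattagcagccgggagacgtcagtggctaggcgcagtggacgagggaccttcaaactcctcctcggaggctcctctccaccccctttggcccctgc

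The Unc5a window held 5 GC boxes, the Unc5b window 2 and the Unc5c window 0. Of 32851 promoter windows of the same length, 32.7% held at least 1. The CpG count was 25 for Unc5a, 27 for Unc5b and 23 for Unc5c, where the median of all windows was 6. None of the 3 windows held TATAAA or CCAAT on either strand, which 12.4% and 33.8% of all windows held. These are matches of letters only, and their part in the changes below was not tested.

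Detection came first. To be kept for the test, a probe had to clear background on every array of either group, which 31372 probes did. Of the 11 member probes 8 were kept, all 8 were well above background on all 6 arrays, and they represent 6 of the 7 genes. The single Ntn4 probe, for the laminin-like netrin-4, was well above background on 0 of 6 arrays, with processed intensities of 5.72, 5.34 and 5.52 units on the siGFP arrays and 5.37, 4.54 and 5.34 units on the circHIPK3 siRNA arrays. No level or change can be given for Ntn4.

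The 3 Dcc probes disagreed. Probe A_55_P1961761 read 70480, 93090 and 83640 units on the siGFP arrays and 108700, 83850 and 76110 units on the circHIPK3 siRNA arrays. Probes A_65_P07978 and A_55_P2021744, matched to the same transcript accession, were well above background on 0 of 6 arrays. Their intensities lay between 5.24 and 7.13 units except for 17.5 units of A_65_P07978 on circHIPK3 siRNA replicate 2, which was also not well above background. Which of these probes reads the Dcc transcript was not tested, and the presence of Dcc in these cells rests on 1 probe. Signals of different probes depend on the probe, so levels are not ranked between genes.

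Changes below are differences of log2 signal, circHIPK3 siRNA minus siGFP, after each array was divided by its 75th percentile. Both Ntn1 probes and 1 of 2 Unc5c probes were lower after circHIPK3 siRNA, Unc5a was lower by less, and the second Unc5c probe overlapped between the groups. The bright Dcc probe, Neo1 and Unc5b lay near 0. As a description, 2 of the 8 kept member probes, 1 for Ntn1 and 1 for Unc5c, both lower, are among the probes under the threshold of 0.05 (limma, Benjamini-Hochberg adjustment over all kept probes), and 6 are not. The Ntn1 and Unc5c probes stayed under it in 9 of 19 alternatives each. Across all kept probes 1.34% passed, 0.755% lower and 0.587% higher. The groups did not overlap for 4 member probes, both of Ntn1, that of Unc5a and the brighter of Unc5c, each with the circHIPK3 siRNA arrays lower. Among all kept probes the groups did not overlap for 25.9%, with 9.74% lower and 16.2% higher. Since the set was chosen on this contrast, nothing is read from these shares.

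**Figure D1:**
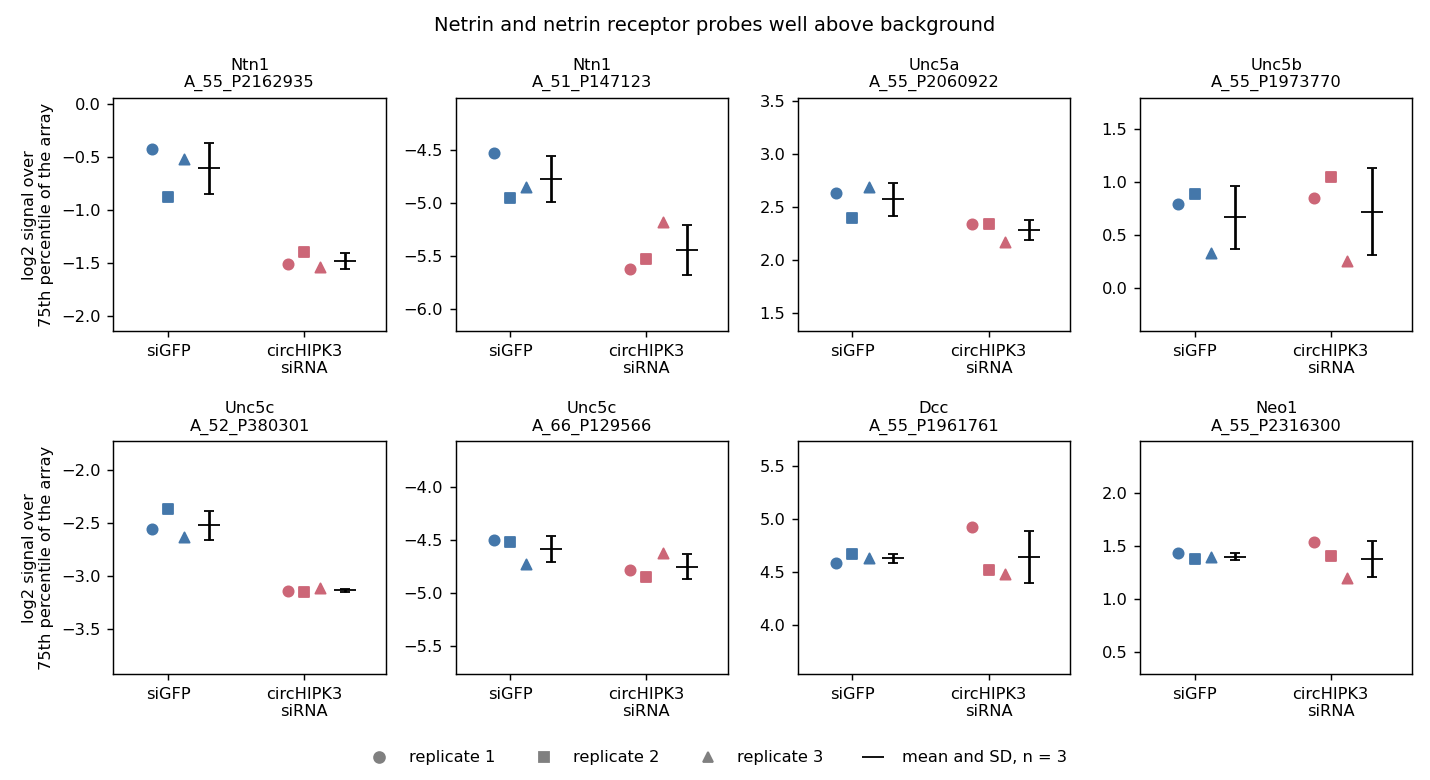
Log2 signal over the 75th percentile of the array (y axis, each panel spans the same range) for the 8 kept member probes in the 2 groups; each symbol is 1 array and the bar is the mean and SD of 3. Both Ntn1 probes and the Unc5c probe A_52_P380301 separate the groups, while Unc5b, Dcc and Neo1 overlap.

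Ntn1 encodes netrin-1, the founding ligand of the family. Its brighter probe, A_55_P2162935, gave log2 signals of -0.42, -0.88 and -0.52 in the siGFP arrays and of -1.51, -1.40 and -1.54 in the circHIPK3 siRNA arrays. Every circHIPK3 siRNA array was lower than every siGFP array, by 0.52 at the closest. The mean was -0.61 ± 0.24 (SD, n = 3) after siGFP and -1.48 ± 0.08 (SD, n = 3) after circHIPK3 siRNA. The change was -0.87 ± 0.14 (SE), which is 1.83-fold. In processed intensity the same probe read 1997 to 2353 units after siGFP and 1179 to 1394 units after circHIPK3 siRNA.

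The second Ntn1 probe, A_51_P147123, was much dimmer and gave log2 signals of -4.53, -4.95 and -4.85 against -5.62, -5.53 and -5.18. The groups again did not overlap, with a gap of 0.23. Its change was -0.67 ± 0.16 (SE), 1.59-fold, and it was not past the threshold. The median change depended on brightness in this scaling: with kept probes in 4 equal bins of signal it was 0.27 in the dimmest, where this probe lies, and 0.02 in the third, where the brighter probe lies. Under quantile normalization the brighter probe gave -0.89 ± 0.13 and the dimmer one -0.87 ± 0.10 (SE), and the dimmer one was also past the threshold. With normexp background correction it gave -0.48 ± 0.14 (SE). Both Ntn1 probes were lower under each of these settings, and the size for the dimmer one moved with both the normalization and the background correction.

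Unc5c, a repulsive netrin receptor, had 2 probes with changes of unlike size. Probe A_52_P380301 gave log2 signals of -2.56, -2.37 and -2.63 after siGFP and -3.14, -3.15 and -3.11 after circHIPK3 siRNA. The 3 circHIPK3 siRNA values had an SD of 0.02, and the highest of them lay 0.48 below the nearest siGFP array. The change was -0.62 ± 0.10 (SE), 1.53-fold. The dimmer probe, A_66_P129566, gave -4.50, -4.52 and -4.73 against -4.79, -4.85 and -4.62, so that the groups overlapped, and its change was -0.17 ± 0.11 (SE). It was -0.35 ± 0.10 (SE) under quantile normalization. The dimmer probe lies in the dimmest bin of signal, where the median change was 0.27. The brighter one lies in the second, where it was 0.13. Over the 6 arrays the 2 probes had a Pearson correlation of 0.74. Both probes match the same accession, and why they differ was not tested.

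Unc5a, another UNC5 receptor, lay at 2.63, 2.40 and 2.69 after siGFP and at 2.34, 2.34 and 2.17 after circHIPK3 siRNA. The groups were separated by 0.05 only. Its change was -0.29 ± 0.12 (SE), not past the threshold. Unc5b, the UNC5 receptor known for its part in blood vessel guidance, gave 0.79, 0.88 and 0.32 against 0.85, 1.05 and 0.26. Within each group replicate 3 was the lowest, and the ranges overlapped fully. The change was 0.05 ± 0.23 (SE), the widest error of the 8 kept member probes.

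The attractive receptors showed no separation of the groups. The bright Dcc probe gave 4.58, 4.67 and 4.63 after siGFP and 4.92, 4.51 and 4.48 after circHIPK3 siRNA, a change of 0.01 ± 0.14 (SE). Replicate 1 of circHIPK3 siRNA was the highest of the 6 arrays and replicates 2 and 3, on slide 2, the lowest. Neo1, which encodes the DCC relative neogenin, gave 1.44, 1.37 and 1.39 against 1.54, 1.40 and 1.20, a change of -0.02 ± 0.11 (SE). Here too replicate 1 was the highest and replicate 3 the lowest of the 6 arrays. Over the 6 arrays the Dcc and Neo1 probes had a Pearson correlation of 0.78, and the brighter Ntn1 probe correlated at 0.85 with the brighter Unc5c probe, at 0.92 with Unc5a and at -0.10 with Unc5b. All of these share the same 6 arrays and scaling, and those with Ntn1, Unc5c and Unc5a include the difference between the groups.

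**Figure D2:**
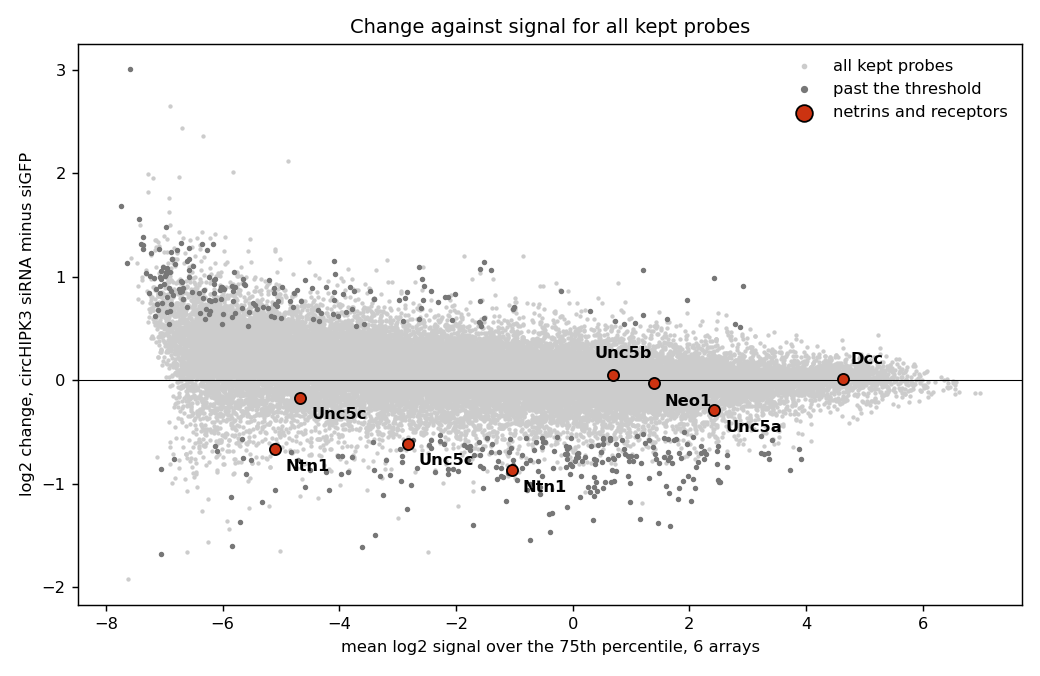
Log2 change, circHIPK3 siRNA minus siGFP (y axis), against mean log2 signal over the 75th percentile (x axis) for the 31372 kept probes; dark grey points are past the threshold and red points are the 8 kept member probes. Both Ntn1 probes and the brighter Unc5c probe lie between -0.87 and -0.62, and Unc5b, Neo1 and Dcc near 0.

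Slide 1 holds both groups, with circHIPK3 siRNA replicate 1 beside the 3 siGFP arrays. The differences there were -0.90 and -0.84 for the brighter and dimmer Ntn1 probes, -0.62 and -0.20 for those of Unc5c, -0.23 for Unc5a, 0.18 for Unc5b, 0.13 for Neo1 and 0.30 for Dcc. For the 4 probes whose groups do not overlap the sign within the slide could only be negative. With slide as a fixed block neither the Ntn1 nor the Unc5c probe was past the threshold, where 1 of all kept probes passed. The same held on leaving out any array other than circHIPK3 siRNA replicate 1, where 0 or 1 of all kept probes passed. Missing the threshold in these settings is therefore not particular to these probes. Without that replicate the groups lie on separate slides.

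The scaling of the arrays did not turn the direction of Ntn1, Unc5c or Unc5a. Scaling to each array's median instead moved the median of all kept probes from 0.08 to -0.03. Relative to the median of all kept probes, the brighter Ntn1 probe lay at -0.95 and the brighter Unc5c probe at -0.69 under both scalings. Each scaling shifts all probes of an array alike, so values relative to that median could not differ between them. Under quantile normalization these probes lay at -0.91 and -0.73. Unc5b lay at -0.02, Dcc at -0.07 and Neo1 at -0.10 relative to that median under both scalings. Under quantile normalization and in the deposited log2 values Dcc (-0.0078 in both) and Neo1 (0.0065 and 0.0066) changed sign, with values close to 0. No direction is given for these 3 genes.

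**Figure D3:**
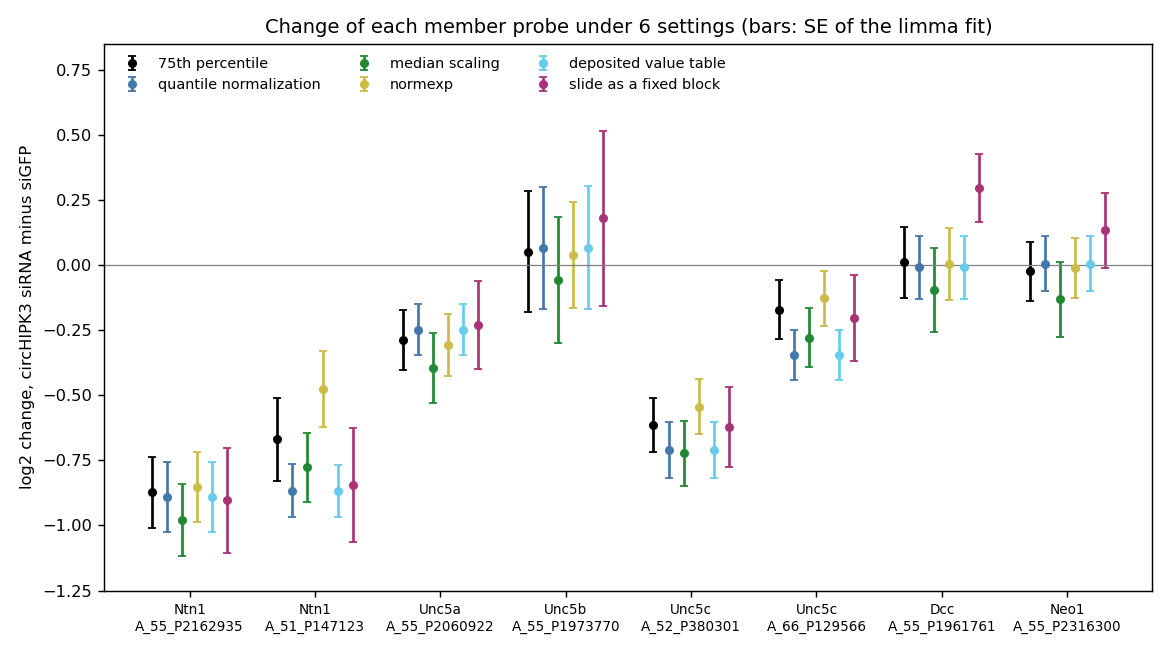
Log2 change of each kept member probe (y axis) under 6 settings, with the SE of the limma fit as bars. Both Ntn1 probes and both Unc5c probes are below 0 in all 6 settings, and the Dcc, Neo1 and Unc5b probes lie on either side of 0.

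The other genes of the pathway were examined as lists in which each gene was represented by its brightest kept probe. Of 57 such genes 50 were kept, 1 rose and 0 fell, and 49 did not pass (limma, 10 at an unadjusted p under 0.05). Across all 17160 named genes 1.52% passed, 0.571% higher and 0.95% lower. The 50 pathway genes had a median change of -0.02, against 0.06 for all named genes.

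Of 11 other ligands 8 were kept and 0 passed, with 2 at an unadjusted p under 0.05 by limma. The median change was 0.06. Rgmb, a repulsive guidance molecule that binds neogenin, had a change of -0.35 ± 0.13 (SE, limma adjusted p = 0.199), and Ntng2, a membrane-anchored netrin, had 0.44 ± 0.17 (SE, limma adjusted p = 0.199). Ntn3 and Ntn5, the remaining secreted netrins, lay at -0.02 ± 0.12 and 0.11 ± 0.15 (SE) and were named after their values were seen. Hjv, Cbln4 and Draxin were not kept.

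Of 14 other receptors 11 were kept and 1 rose, with a median of 0.11. This was Dscaml1, a homophilic adhesion protein related to the netrin receptor DSCAM. It gave log2 signals of -4.83, -5.37 and -5.00 after siGFP and -4.22, -4.23 and -3.84 after circHIPK3 siRNA. All 3 circHIPK3 siRNA arrays were higher, with a change of 0.97 ± 0.17 (SE, limma adjusted p = 0.0491), 1.96-fold. The other Dscaml1 probe was well above background on no array. The kept one lies in the dimmest bin of signal, where the median change was 0.27. With normexp the change was 0.56 ± 0.15 (SE) and the call was lost (limma adjusted p = 0.125). It was also lost on leaving out any array other than circHIPK3 siRNA replicate 1, with changes of 0.82 to 1.09. There 0 or 1 of all kept probes passed, so that loss is not particular to Dscaml1. Its adjusted p ranged from 0.0239 to 0.289 over 19 alternatives, of which 7 kept the call. Dscam, which did not pass, had a change of -0.57 ± 0.42 (SE), and Unc5d was well above background on no array; both were named after their values were seen.

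Of 26 adaptors and effectors that act below the receptors 25 were kept and 0 passed, with 5 at an unadjusted p under 0.05 by limma and a median of -0.04. The actin-binding gene Ablim1 had a change of 0.63 ± 0.15 (SE, limma adjusted p = 0.0902); it was well above background on 1 of 3 siGFP arrays and was kept through the circHIPK3 siRNA arrays, where it is higher, so nothing is read from its test. The small GTPase gene Rac1 had -0.36 ± 0.11 (SE, limma adjusted p = 0.130) by its brightest probe and 0.01 ± 0.09 (SE) by its second. All 6 genes of the dependence receptor death arm were kept and 0 passed (limma, 0 at an unadjusted p under 0.05), with a median of -0.11. Among them the death-associated kinase gene Dapk1 had a change of -0.35 ± 0.20 (SE, limma adjusted p = 0.333).

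Other guidance families were examined in the same way. The family's own counts are not set against these lists, since its members were chosen on this contrast. In the Slit and Robo list 7 of 7 genes were kept and 0 passed (limma, 0 at an unadjusted p under 0.05), with Robo4 at 0.35 ± 0.16 and Robo1 at 0.28 ± 0.13 (SE). Of 31 semaphorin, plexin and neuropilin genes 29 were kept and 1 fell, the semaphorin co-receptor gene Plxna3. It gave -2.25, -2.33 and -2.15 after siGFP and -3.13, -2.88 and -3.27 after circHIPK3 siRNA, a change of -0.85 ± 0.13 (SE, limma adjusted p = 0.0368) with the groups apart. That call was lost without any array other than circHIPK3 siRNA replicate 1 (changes of -0.96 to -0.76), where 0 or 1 of all kept probes passed. The limma adjusted p of Plxna3 ranged from 0.0129 to 0.185 over 19 alternatives. Of 22 ephrins and Eph receptors 17 were kept and 0 passed (limma, 5 at an unadjusted p under 0.05), with Epha8 at -0.40 ± 0.13 (SE). Efnb2 had -0.46 ± 0.16 (SE) by its brightest probe and 0.03 ± 0.17 (SE) by its second.

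**Figure D4:**
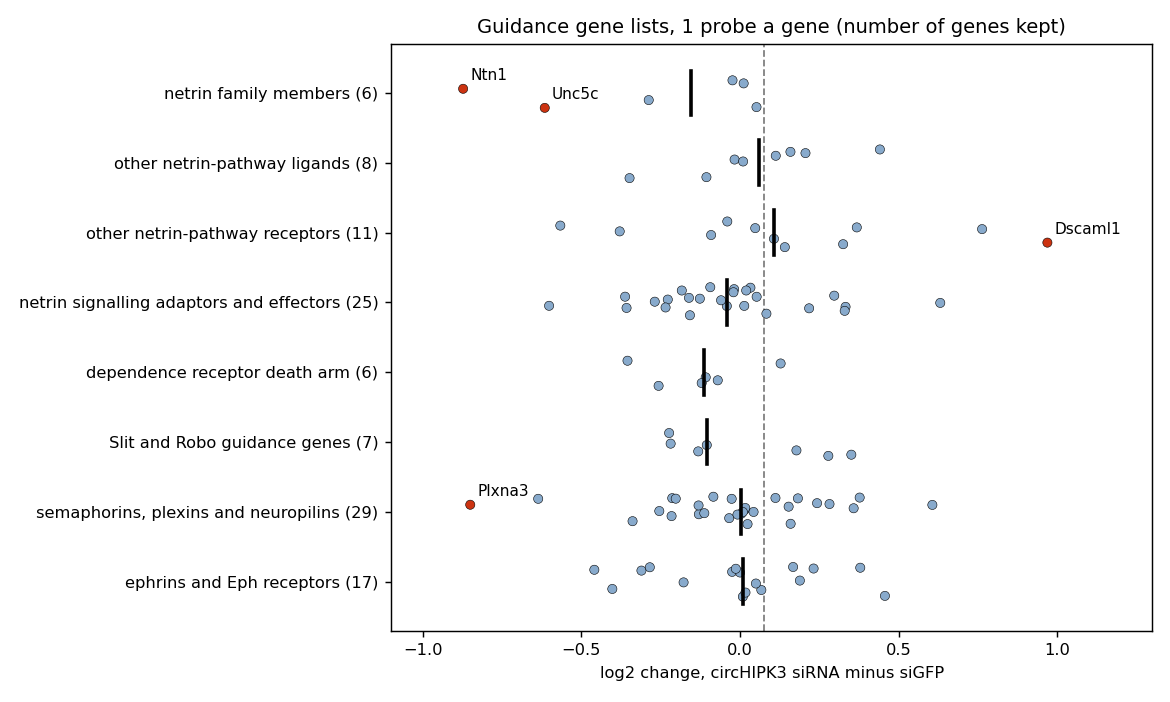
Log2 change, circHIPK3 siRNA minus siGFP (x axis), of each gene by its brightest kept probe in 8 lists (y axis, number of genes kept in brackets); red points are past the threshold, black bars are list medians and the dashed line is the median of all kept probes, 0.08. Past the threshold are Ntn1, Unc5c and Plxna3 below 0 and Dscaml1 above it. The netrin family list was chosen on this contrast, so it is not compared with the others.

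The genes whose signal most resembled that of the brighter Ntn1 probe over the 6 arrays were Acap3, which encodes a GTPase-activating protein for ARF (Pearson r = 0.998), Nrd1, which encodes the protease nardilysin (r = 0.995), and Dennd10 (r = 0.995). They were picked as the highest among all other named genes with a kept probe, so the size of r describes the choice. Probes without a symbol were not ranked. Acap3 gave log2 signals of 1.41, 1.17 and 1.40 after siGFP and 0.81, 0.84 and 0.80 after circHIPK3 siRNA. As for Ntn1, replicate 2 was the lowest siGFP array. The changes of Acap3, Nrd1 and Dennd10 were -0.51 ± 0.10, -0.51 ± 0.11 and -0.23 ± 0.09 (SE).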

How the data were processed

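The members, lists and tests were chosen with earlier results of these data known. Per the file headers, the deposited files hold an intensity per spot, background-subtracted by Agilent Feature Extraction 11.0.1.1, and flags. A deposited table holds log2 values of 31868 probes. Its columns share 1 maximum, and its normalization is not given in the sources used here. For the brighter Ntn1 and Unc5c probes it gave changes of -0.89 and -0.71, as did quantile normalization. For the members these 2 alternatives are therefore nearly the same. Non-uniform and outlier spots were left out, each array's 75th percentile was subtracted on the log2 scale, and spots of a probe were averaged. Probes took symbols by matching their accession to RefSeq (GRCm38.p6): 27234 had a symbol and 12195 had none. The files name another build, so gene coordinates are not printed except for the RefSeq promoters. No spot was saturated. Probes (31372 kept) entered a limma fit (version 3.58.1, R 4.3.3) with lmFit, eBayes and no covariate besides group,, two-sided, Benjamini-Hochberg threshold 0.05. Named genes were all member probes, per list up to 4 genes past the threshold or otherwise the 2 with the smallest p, Hipk3, and the 3 genes most like the member probe of largest change. One gene that this rule names is not reported here. In 10 simulated runs over 31372 probes for this comparison, 200 probes were changed in each. The fit called 23.0% of true changes of 1.5-fold, 84.6% at 2-fold and 97.3% at 3-fold, and 6.48% of its calls were false. The simulated noise was independent between probes and had no slide difference. In the data 6605 kept probes had an unadjusted p under 0.05 by limma, so these rates need not hold there. Of 19 alternatives, 1 used the deposited log2 table, which differs in normalization and probes, and each other replaced 1 step: scaling, background, filter, probe choice, variance model, weights, block, slide or a left-out array.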

Additional observations from a re-analysis of the deposited data

How the results depend on the processing

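Of 31372 kept probes 421 passed, 184 higher and 237 lower. The split differed with normalization, background correction or table: 54 and 280 of 334 with quantile normalization, 252 and 560 of 812 with median scaling, 62 and 321 of 383 with normexp, and 44 and 223 of 267 in the deposited log2 table. The count was 776 with trend and robust variance, 1444 with array weights, 0 with no filter (limma, 6818 at an unadjusted p under 0.05), 216 with slide as a random block, 1 with slide as a fixed block and 2 on the first slide alone. Leaving out 1 array gave 0 to 1725, the highest without circHIPK3 siRNA replicate 1. With the replicate number as a block it was 0 (limma, 6370 at an unadjusted p under 0.05). Same-numbered arrays had correlations of deviations of -0.0044, 0.27 and -0.11, and not every array correlated best with its own number, so the numbers were not taken as pairs. In the 4 netrin pathway lists outside the family 1 gene passed; the count was 2 with array weights, 0 with normexp, no filter, 1 probe a gene, the replicate block and each slide setting, and 0 to 3 on leaving out an array. The brighter Ntn1 and Unc5c probes kept their direction in all 19 alternatives (-1.01 to -0.78 and -0.72 to -0.54) and passed in 9 each. Only another scaling, background correction or table could have turned the direction, since in the main scaling the groups do not overlap for these probes. They did not pass with no filter, the replicate block (-0.87 and -0.62), any slide setting, or without any array but circHIPK3 siRNA replicate 1. The dimmer Ntn1 probe (-0.87 to -0.48) passed in 4 of 18. The sign turned for Unc5b with median scaling (-0.055), for Dcc with quantile normalization (-0.0078), median scaling (-0.096), the deposited table (-0.0078) and array weights (-0.023), and for Neo1 with quantile normalization (0.0065), the deposited table (0.0066) and slide as a fixed block or the first slide alone (0.13 for both). Median scaling moves all probes alike, so its turns follow from that shift and values relative to the median of all probes did not change. Unc5b was 0.31 with array weights. On leaving out an array Unc5b ranged from -0.12 to 0.28, Dcc from -0.13 to 0.092 and Neo1 from -0.10 to 0.068. For the other changes the cause was not tested. The 3 member probes well above background on no array give no change.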
